A study of Mus musculus with 6 samples.

Results

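The genes described here are 10 mouse genes for GTPases that are induced by interferon-gamma. They are the guanylate-binding proteins Gbp2, Gbp3, Gbp6 and Gbp7, and the immunity-related GTPases (IRGs) Igtp, Irgm1, Irgm2, Iigp1, Tgtp1 and Tgtp2. They were picked out by gene symbol, and 9 of the 10 had a row among the 40481 genes of the deposited table. Gbp6 had none. Liver RNA was sequenced after removal of ribosomal RNA from 6 pools, 3 for each genotype, and the pools held RNA of 3 to 4 mice each. All mice were C57BL/6, carried floxed Mttp alleles and a tamoxifen-activated Cre recombinase driven by the Villin promoter, so that recombination is aimed at the intestinal epithelium. Mttp, the microsomal triglyceride transfer protein, loads lipid onto apolipoprotein B and is needed to assemble chylomicrons. Mttp-IKO mice received tamoxifen for 5 days, whereas their littermate controls received vehicle and were labelled wild type, so genotype and tamoxifen exposure cannot be told apart. Both groups were 12 to 16 weeks old, were fed a diet lacking methionine and choline (MCD) for 3 weeks from 3 weeks after the injections, and were fasted for 4 h. No pool came from chow-fed mice.

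Interferon-gamma, secreted mainly by T cells and natural killer cells, binds a receptor of the subunits IFNGR1 and IFNGR2 and activates the kinases JAK1 and JAK2. The signal reaches target promoters at gamma-activated sites (GAS) and, through IRF1, at interferon-stimulated response elements (ISRE). Guanylate-binding proteins assemble on membranes of vacuoles and bacteria inside cells and promote inflammasome activation. Among IRGs, the effectors (Iigp1, Tgtp1 and Tgtp2) coat and break vacuoles that hold parasites, and the regulators (Igtp, Irgm1 and Irgm2) sit on the cell's own membranes and keep the effectors from acting there.

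Since the response to interferon-gamma is wired through these short elements, the promoter stretches that hold them are shown. RefSeq windows of 250 bases before the start site (GRCm38.p6) matched 8 of the 10 genes. Gbp6 and Iigp1 had no entry. The motifs searched were GAS, written TTCNNNGAA, and ISRE, written GAAANNGAAA, each on either strand and with overlaps between motifs allowed. All 8 genes held an ISRE, which 2.98% of the 32851 windows of all genes held, and 5 held a GAS, which 7.02% held. The 8 genes had 9 windows, because Gbp3 had another start site, and the window of that site held neither motif. In 4 IRG promoters the GAS was followed after 2 bases by the ISRE, an arrangement that 5 windows of the 32851 held (0.0152%), the other being that of the Tgtp-like gene Gm12185. Igtp and Irgm2 share longer stretches around this arrangement, as do Tgtp1, Tgtp2 and Gm12185, so the 5 windows were not shown to be independent. The arrangement was noticed in these sequences before it was counted. The 30 bases around it are given 5′ to 3′ on the strand of the gene, with both motifs in capitals, for Igtp (chr11:58199507-58199536, plus strand), Irgm2 (chr11:58214898-58214927, plus strand), Tgtp1 (chr11:48992309-48992338, minus strand) and Tgtp2 (chr11:49064268-49064297, minus strand).
Igtp: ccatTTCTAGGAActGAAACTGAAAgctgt
Irgm2: ccatTTCCAGGAActGAAACTGAAAgctgt
Tgtp1: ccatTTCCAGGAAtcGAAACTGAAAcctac
Tgtp2: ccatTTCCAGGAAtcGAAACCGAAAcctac

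The other 4 genes held an ISRE without that neighbour, and it is in capitals in 30 bases of Gbp2 (chr3:142620594-142620623, plus strand), Gbp3 (chr3:142559992-142560021, plus strand), Gbp7 (chr3:142530273-142530302, plus strand) and Irgm1 (chr11:48871428-48871457, minus strand). In Gbp3 and Irgm1 a pair of ISRE matches overlapped.
Gbp2: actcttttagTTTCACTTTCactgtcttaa
Gbp3: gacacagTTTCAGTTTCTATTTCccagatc
Gbp7: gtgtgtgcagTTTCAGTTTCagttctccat
Irgm1: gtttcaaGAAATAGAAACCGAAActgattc

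A pair of longer stretches, the 110 bases that end at the start site, show both arrangements in place. Igtp (chr11:58199446-58199555, plus strand) held its GAS 45 bases before the start. Gbp7 (chr3:142530226-142530335, plus strand) held GAS matches at 106 and 87 bases and its ISRE at 53 bases before the start. These matches describe letters in the reference sequence, and binding was not measured.
Igtp promoter: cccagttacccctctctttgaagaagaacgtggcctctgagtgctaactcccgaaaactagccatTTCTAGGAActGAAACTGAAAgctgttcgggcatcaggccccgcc
Gbp7 promoter: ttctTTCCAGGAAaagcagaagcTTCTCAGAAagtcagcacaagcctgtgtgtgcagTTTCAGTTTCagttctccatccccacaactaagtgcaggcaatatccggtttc

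Between 25271585 and 36238734 reads per pool fell on genes. Mttp-IKO pool 3 was the shallowest and stood apart from the rest: small RNA genes took 0.289% of its reads, whereas they took 1.92% to 3.51% elsewhere. edgeR's quasi-likelihood test with Benjamini-Hochberg adjustment, at a threshold of 0.05, called 694 of 17287 genes (4.01%), 535 of them lower in Mttp-IKO. Without Mttp-IKO pool 3 it called 864 genes, and without Mttp-IKO pool 2 it called 0, with 3221 genes then at an unadjusted p under 0.05. The call therefore depended on single pools across the whole table. Hepatic Mttp, which the intestinal Cre does not target and which is thus no check of the labels, had a log2 fold change of -0.055 (adjusted p = 0.926, edgeR).

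In liver of control mice the GTPases spanned a wide range of levels per length, given here as RPKM scaled by TMM factors (mean ± SD, n = 3). Iigp1, an effector IRG, led with 34.6 ± 3.59 RPKM. The regulators followed, with Irgm2 at 10 ± 2.28, Igtp at 7.12 ± 1.95 and Irgm1 at 4.33 ± 0.515 RPKM. Gbp2 (3.71 ± 0.717), Gbp7 (3.41 ± 0.261) and Gbp3 (2.58 ± 0.195) came next, and Tgtp1 (1.06 ± 0.267) and Tgtp2 (1.02 ± 0.256) were lowest. The pools of Irgm2 and Igtp overlapped, as did those of Irgm1 and Gbp2, of Gbp2 and Gbp7, and of Tgtp1 and Tgtp2. Within each single control pool, however, Irgm2 was above Igtp, Irgm1 above Gbp2 and Tgtp1 above Tgtp2. Only the order of Gbp2 and Gbp7 changed from pool to pool. Iigp1 stood apart from Irgm2, Igtp from Irgm1 and Gbp7 from Gbp3. Levels of Tgtp1 and Tgtp2 are uncertain, because only uniquely aligned reads were counted and 81.2% and 86.6% of the 50-base windows of their transcripts (GENCODE M21) also occurred in another gene. For Gbp7 that share was 12.7%, for Igtp 11.8%, and for Irgm2 7.83%, and it was at most 3.75% for Gbp3, Gbp2, Iigp1 and Irgm1.

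**Figure D1:**
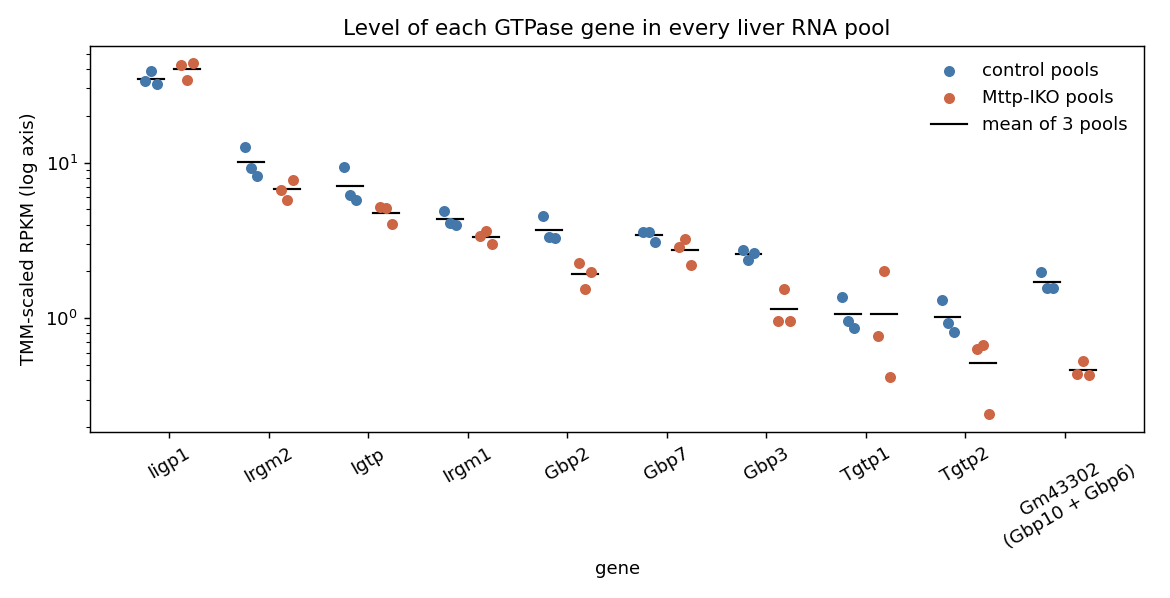
TMM-scaled RPKM on a log axis for each GTPase gene, with a point per pool (blue control, orange Mttp-IKO, 3 each) and a bar at the mean. Iigp1 lies at the top with overlapping genotypes at 34.6 and 39.8 RPKM on average, and all Mttp-IKO points of Gbp2 and Gbp3 lie below all their control points.

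Against this background, 1 of the 9 GTPase genes tested, Gbp3, was called lower in Mttp-IKO and 0 were called higher (6 at an unadjusted p under 0.05, and 0 higher by DESeq2 or limma-voom), where 3.09% of all genes tested were called lower and 0.920% higher. Log2 fold changes were below 0 for 8 of the 9, against 49.5% of all genes, with a median of -0.57, where the median over all 17287 genes was 0.0059. The 3 Mttp-IKO pools lay below the 3 control pools for 6 of the 9 (Gbp2, Gbp3, Igtp, Irgm1, Irgm2 and Tgtp2), where 16.5% of all genes had groups apart in that direction and 31.0% in either, and for each of these 6 the exact permutation test gave p = 0.1, the smallest two-sided value that 3 against 3 allows. The 6 genes at an unadjusted p under 0.05 stand against 23.0% of all genes. In whole liver, fewer cells of a type and less RNA per cell cannot be told apart.

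Of the guanylate-binding proteins, Gbp3 had 8.92, 7.67 and 8.48 CPM in the control pools (reads scaled to library size with TMM factors) and 3.09, 4.97 and 3.10 in the Mttp-IKO pools. Every Mttp-IKO pool was below every control pool. The gene stood at a log2 fold change of -1.17 ± 0.243 (SE), 55.4% lower, with an adjusted p of 0.0427 by edgeR. That call was lost when any single pool was left out (adjusted p 0.0546 to 0.164, log2 fold change -1.43 to -1.05).

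Gbp2, which is recruited to vacuoles of Toxoplasma, had 11.4, 8.39 and 8.20 CPM in controls and 5.73, 3.91 and 4.94 CPM in Mttp-IKO. Its groups were also apart, with control pool 1 the highest of all. The log2 fold change was -0.94 ± 0.229, and the adjusted p of 0.0631 (edgeR) missed the threshold. Gbp7 had 19.7, 19.8 and 17.3 CPM in controls against 15.9, 17.9 and 12.2 CPM. Here Mttp-IKO pool 2 reached above the lowest control pool. The log2 fold change of Gbp7 was -0.30 ± 0.183 (adjusted p = 0.359, edgeR), or -0.16 without Mttp-IKO pool 3.

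No row carried the symbol Gbp6, and its reads appear to be held by another row. The row named Gm43302 (chr5:105215699-105293699, minus strand, 22 exon pieces) reaches over the RefSeq positions of both Gbp10 (105215699 to 105239533) and most of Gbp6 (105270702 to 105295871), and reads of these near-identical genes cannot be divided between them. It held 15.6, 12.2 and 12.3 CPM in the control pools and 3.45, 4.18 and 3.39 CPM in the Mttp-IKO pools. The groups were far apart relative to their spread. This was a log2 fold change of -1.86 ± 0.196, 72.5% lower, with an adjusted p of 0.0111 (edgeR), which rose to 0.0540, 0.0530 and 0.0914 without control pool 1, control pool 3 and Mttp-IKO pool 2. This row was taken up after it was found to cover Gbp6, and it is counted neither among the 9 genes nor in the lists of other family members.

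The regulatory IRGs, which guard the cell's own membranes, were lower in every Mttp-IKO pool, but none of the 3 passed the test. Irgm2 had 45.5, 33.7 and 29.7 CPM in controls and 24.2, 20.9 and 28.0 CPM in Mttp-IKO. Its groups were apart by a narrow margin, with control pool 1 high. The log2 fold change was -0.57 ± 0.202 (adjusted p = 0.146, edgeR).

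Igtp had 18.9, 12.6 and 11.7 CPM in controls and 10.4, 10.3 and 8.13 CPM in Mttp-IKO, again with control pool 1 the highest. Its log2 fold change was -0.58 ± 0.229 (adjusted p = 0.184, edgeR), or -0.35 without that pool. Irgm1, which has been tied to autophagy and mitochondria, had 28.6, 23.8 and 23.1 CPM against 19.6, 21.1 and 17.3 CPM. Its log2 fold change of -0.38 ± 0.159 (adjusted p = 0.204, edgeR) was the smallest of the 3 regulators. The annotated span of Irgm2 begins inside Igtp, at position 58199618 of chromosome 11, so reads lying in exons of both were counted for neither.

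None of the 3 effector IRGs passed the test. Iigp1 had 104, 121 and 99.1 CPM in controls and 132, 106 and 135 CPM in Mttp-IKO. The groups overlapped, and the only log2 fold change above 0 among the 9 genes was that of Iigp1, at 0.20 ± 0.169 (adjusted p = 0.511, edgeR). Tgtp2 had 3.84, 2.74 and 2.40 CPM in controls against 1.87, 1.99 and 0.712 CPM, with groups apart. Its log2 fold change was -0.97 ± 0.408 (adjusted p = 0.207, edgeR) and rested on 17 to 155 reads per pool. Without Mttp-IKO pool 3 it was -0.64.

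Tgtp1 had 4.38, 3.07 and 2.78 CPM in controls and 2.45, 6.41 and 1.34 CPM in Mttp-IKO. Mttp-IKO pool 2 was the highest of all 6, the other Mttp-IKO pools the lowest. The log2 fold change was -0.0024 ± 0.520 (adjusted p = 0.999, edgeR) and became -0.84 without Mttp-IKO pool 2 (adjusted p = 0.308, edgeR). In that pool Tgtp1 had 3.22 reads for each Tgtp2 read, against 1.12 to 1.16 in the controls and 1.31 and 1.88 in the other Mttp-IKO pools. With both near-identical copies summed, the log2 fold change was -0.38 ± 0.455 (adjusted p = 0.658, edgeR).

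Within a pool, the reads of each gene can be set against those of Iigp1, which removes the scaling of the library. The log2 ratio of Gbp2 to Iigp1 was -3.54 on average in controls and -4.68 in Mttp-IKO, and that of Irgm2 was -1.59 and -2.35. Of 10 such ratios, the groups were apart and lower in Mttp-IKO for 6 (Gbp2, Gbp3, Igtp, Irgm2, Tgtp2 and Gm43302) and overlapped for 4 (Gbp7, Irgm1, Tgtp1 and Gm4951). The share of all genes whose ratio to Iigp1 had groups apart was not computed. Without a ratio, 16.5% of all genes had groups apart and lower. The log2 fold change of Iigp1 itself, 0.20, lowers every mean ratio to it in Mttp-IKO. Of the summed RPKM of the 9 genes, Iigp1 took 45.3%, 55.6% and 52.6% in the control pools and 65.1%, 59.0% and 67.8% in the Mttp-IKO pools. The other 8 together came to 40.4, 30.8 and 28.6 RPKM in controls and 22.7, 23.5 and 20.5 RPKM in Mttp-IKO. These ratios were formed after the values of Iigp1 were seen and support nothing further. Exact permutation tests of the 10 ratios gave no p below 0.1, the smallest that 3 against 3 allows, or 0.167 adjusted over the 10.

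**Figure D2:**
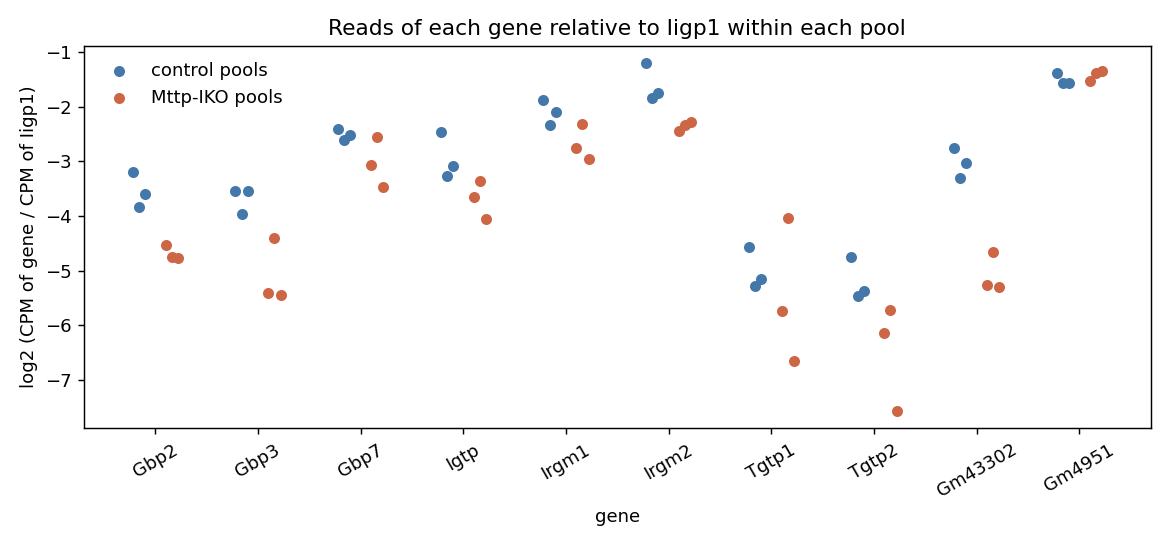
Log2 ratio of the CPM of each gene to the CPM of Iigp1 in the same pool, with a point per pool (blue control, orange Mttp-IKO). For Gbp2 the means are -3.54 and -4.68 and the groups are apart, whereas for Gm4951, a neighbour of Iigp1, the means are -1.50 and -1.42 and the groups overlap.

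Other genes of both families were taken from lists. Of 5 other guanylate-binding protein genes with a row, all tested, 1 was called lower, where 3.09% of all genes were. All 5 had log2 fold changes below 0, with a median of -0.72, where 49.5% of all genes lay below 0. The annotated spans of Gbp4, Gbp8 and Gbp9 overlap on the same strand, so these rows were not shown to be independent. The gene called, Gbp11, which is annotated as a polymorphic pseudogene, had 9.21, 7.62 and 7.64 CPM in controls and 1.74, 1.64 and 2.98 CPM in Mttp-IKO. Its groups did not overlap. The log2 fold change was -1.95 ± 0.280 (adjusted p = 0.0181, edgeR), and the adjusted p lay between 0.0613 and 0.0998 without control pool 1 or 3 or Mttp-IKO pool 1 or 2. Gbp4 stood at -0.72 (adjusted p = 0.148), Gbp9 at -0.55 (0.209) and the row named Gbp2b at -0.58 (0.325), and Gbp8 was 49.9% lower (0.206), all by edgeR. The row named Gbp2b begins at position 142496934 of chromosome 3, where RefSeq places the start of Gbp5, and runs to the end of Gbp2b at 142619179, so it holds reads of both genes.

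Of 11 other IRG and giant GTPase genes tested, 0 were called by edgeR and the median log2 fold change was -0.49. By edgeR, 4 of the 11 were at an unadjusted p under 0.05 (23.0% over all genes) and 8 were below 0 (49.5%). Of all 17287 genes, edgeR called 4.01%, limma-voom called 428 genes and the DESeq2 Wald test called 657 higher. On the 11 genes limma-voom called 0 and the DESeq2 Wald test 1, Irgq, which was higher in Mttp-IKO. The lowest was Gm12250 (Irgb10), an IRG that acts with guanylate-binding proteins on bacterial membranes, at -1.23 ± 0.476 (adjusted p = 0.177, edgeR) with 113, 32 and 39 reads in controls and 22, 22 and 15 in Mttp-IKO. Its groups were apart, and control pool 1 was far above the other pools. Without that pool its log2 fold change was -0.60 (adjusted p = 0.547, edgeR). Irgq, a distant relative of the IRGs, had 29.7, 27.1 and 26.9 CPM against 41.6, 37.8 and 41.7 CPM. Its log2 fold change was 0.53 ± 0.135 (adjusted p = 0.0694, edgeR), with the Mttp-IKO pools all higher.

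The genes lie in clusters, and their values are set out by chromosome, a grouping made after the values were seen. All 19 GTPase genes tested on chromosomes 3, 5 and 11, Gm43302 included, had log2 fold changes below 0, with a median of -0.68, 13 of them with groups apart, where 49.5% of all genes had log2 fold changes below 0 and 16.5% had groups apart and lower. The 19 include Tgtp1, at -0.0024, whose sign turned under other settings. They also include close copies, so they were not shown to be independent of one another. Besides Tgtp1, Tgtp2 and Gm43302, these include 9930111J21Rik1, 9930111J21Rik2 and Gm5431. Of their 50-base windows, 83.2%, 59.8% and 37.3% also occurred in another gene. For Gm12185, Gbp11 and Gbp8 the share was 19.5%, 19.2% and 18.1%. Annotated spans also overlap on the same strand, among them those of Gbp4, Gbp8 and Gbp9, and those of Gm12185 and Tgtp1. Of the 4 IRG genes of chromosome 18, none had groups apart and the median was 0.24. Beside Iigp1, these were Gm4951 at 0.29 ± 0.163 (adjusted p = 0.333), Gm4841 at -0.17 ± 0.224 (0.678) and F830016B08Rik at 0.41 ± 0.360 (0.526), by edgeR. F830016B08Rik reached 62.6 CPM in Mttp-IKO pool 3, against 23.7 to 29.4 CPM in the other 5 pools, and without that pool its log2 fold change was -0.19. On chromosome 7 the signs were mixed, with Irgq above 0 and the giant GTPase genes Gvin1 and Gm4070 at -0.68 ± 0.369 (adjusted p = 0.311) and -0.84 ± 0.350 (0.204), by edgeR. Gvin1 and Gm4070 shared 99.2% and 97.8% of their 50-base windows with other genes, so their separate values are uncertain. The difference between the chromosomes was not tested.

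**Figure D3:**
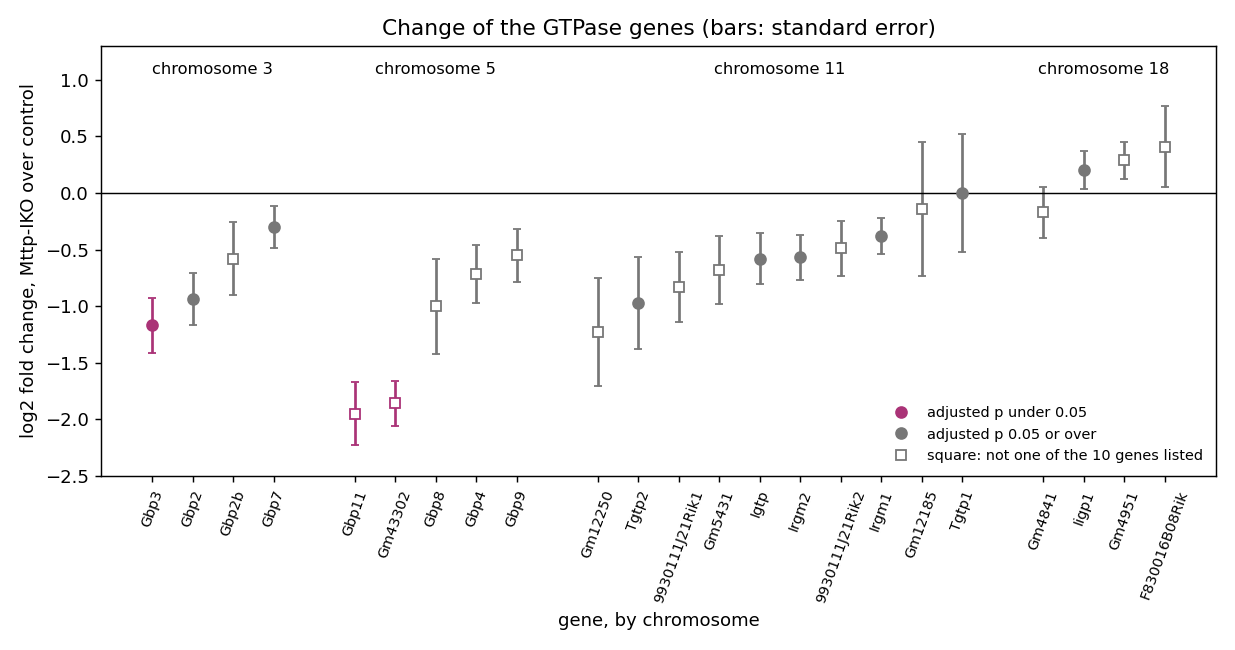
Log2 fold change (Mttp-IKO over control) with standard error for the GTPase genes, ordered within each chromosome. Filled circles are genes of the 10 listed and open squares other family members, purple where the adjusted p is under 0.05. The 3 purple points (Gbp3, Gbp11 and Gm43302) lie on chromosomes 3 and 5, and the 4 genes of chromosome 18 lie around 0.

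The ligand gene was not detectable in whole liver. Ifng had 0, 0 and 2 reads in the control pools and 0, 2 and 0 in the Mttp-IKO pools, all below the 3 reads that a count of 0 allows (0.0828 to 0.119 CPM), so neither its presence nor a difference was detectable at this depth. Il12b, a subunit of interleukin-12, had 20, 10 and 8 reads in controls and 0, 0 and 1 in Mttp-IKO and was removed by the filter on low counts. Over all 17287 genes, edgeR called 535 lower and 159 higher, limma-voom 312 and 116, and the DESeq2 Wald test 1338 and 657. Of 7 genes tested in the list of interferon-gamma and its inducers, edgeR called 1 lower and 0 higher and limma-voom called 0. The DESeq2 Wald test called 1 lower and 1 higher, and the median was -0.22 by edgeR. The gene that edgeR called was Tbx21 (T-bet), the transcription factor of interferon-gamma producing lymphocytes, with 32, 25 and 33 reads in controls and 5, 5 and 6 in Mttp-IKO. The groups were well apart. Its log2 fold change was -2.10 ± 0.428 (adjusted p = 0.0407, edgeR), and the adjusted p rose above 0.05 without any pool except Mttp-IKO pool 3 (0.0533 to 0.170). Il12rb1, an interleukin-12 receptor subunit, stood at 1.07 ± 0.297 (adjusted p = 0.0878, edgeR) and was the gene that DESeq2 called higher.

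In the receptor and its signaling, edgeR called 1 of 8 genes lower and 0 higher, limma-voom called 0 and DESeq2 called 2 lower, with a median of -0.41 by edgeR. Over all genes, 3.09% were lower by edgeR, and DESeq2 called 1338 of 17287 lower. The receptor genes Ifngr1 and Ifngr2 stood at -0.37 (adjusted p = 0.352) and -0.45 (0.141), and the kinases Jak1 and Jak2 at 0.033 (0.924) and -0.16 (0.572), by edgeR. Irf1, whose product binds ISREs, stood at -0.61 ± 0.244 (adjusted p = 0.190) and Irf9, a factor of type I interferon signaling, at -0.36 (0.328). The gene that edgeR called was Irf8, a factor of the monocyte lineage, with 43.5, 20.9 and 34.2 CPM in controls and 14.4, 12.3 and 12.9 CPM in Mttp-IKO. Its log2 fold change was -1.32 ± 0.261 (adjusted p = 0.0378, edgeR), and the adjusted p was between 0.0589 and 0.148 without any pool except control pool 2.

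Of 4 inhibitors of the pathway, edgeR, limma-voom and DESeq2 each called 0, and 2 were at an unadjusted p under 0.05 by edgeR (23.0% of all genes). Socs1, which blocks the JAK kinases, stood at -0.66 (adjusted p = 0.263). Socs3 (0.65, adjusted p = 0.310), the phosphatase gene Ptpn2 (0.43, 0.148) and Pias1 (0.36, 0.197) were above 0, and for Socs3 Mttp-IKO pool 3 was high at 64.8 CPM, against 20.7 to 29.3 CPM in the other pools. Without that pool the log2 fold change of Socs3 was 0.094.

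Of 17 other targets of interferon-gamma that were tested, edgeR called 3 lower and 0 higher, limma-voom 1 and DESeq2 5, all lower, 15 log2 fold changes were below 0 and the median was -0.79. Over all genes, 3.09% were called lower by edgeR and 49.5% lay below 0. Of the 17287 genes, limma-voom called 312 lower and DESeq2 1338. Ciita, the master activator of MHC class II genes, had 13.2, 5.54 and 10.6 CPM in controls and 1.55, 2.09 and 2.10 CPM in Mttp-IKO (log2 fold change -2.36 ± 0.346, adjusted p = 0.0186, edgeR). Ubd, a ubiquitin-like modifier, stood at -2.87 ± 0.538 (adjusted p = 0.0332) and Cd274, which encodes PD-L1, at -1.54 ± 0.285 (0.0323). The groups were apart for all 3, and all 3 calls were lost without control pool 1 or 3 or Mttp-IKO pool 1 or 2 (adjusted p 0.0625 to 0.129). The chemokine gene Cxcl9 stood at -1.46 ± 0.381 (adjusted p = 0.0732, edgeR).

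Targets of type I interferon, many of which carry an ISRE, had 8 of 24 called lower and 0 higher by edgeR, 5 lower by limma-voom and 15 lower by DESeq2, with 23 log2 fold changes below 0 and a median of -1.25. The tools differed over all 17287 genes too, with 535 (3.09%) called lower by edgeR, 312 by limma-voom and 1338 by DESeq2. Of all genes, 49.5% lay below 0. The targets with the lowest adjusted p were Zbp1, a nucleic acid sensor, at -1.55 ± 0.219 (adjusted p = 0.0181), Ifit3 at -1.79 ± 0.285 (0.0223), Irf7 at -1.32 ± 0.228 (0.0285) and Ifit1 at -1.66 ± 0.295 (0.0293), by edgeR. Each of these 4 calls was lost without control pool 1 or 3 or Mttp-IKO pool 2 (adjusted p 0.0743 to 0.119), and those of Zbp1, Ifit3 and Ifit1 also without Mttp-IKO pool 1 (0.0613, 0.0617 and 0.0613).

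Of 10 genes for the conjugation of ATG8 proteins, which IRGs and guanylate-binding proteins need to reach vacuoles, edgeR, limma-voom and DESeq2 each called 0, 0 were at an unadjusted p under 0.05 by edgeR and the median was 0.028. The lowest adjusted p was that of Gabarapl1, with a log2 fold change of -0.50 ± 0.219 (adjusted p = 0.222, edgeR). Of 7 inflammasome genes edgeR and limma-voom called 0 and DESeq2 called 1, Casp1, with 3 at an unadjusted p under 0.05 and a median of -0.60. Among them Casp1, the inflammasome protease, stood at -0.97 ± 0.285 (adjusted p = 0.0974) and Gsdmd, which forms pores once cleaved, at -0.63 ± 0.189 (0.104), by edgeR. Over all genes, 23.0% were at an unadjusted p under 0.05 by edgeR, and DESeq2 called 1338 of 17287 lower.

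**Figure D4:**
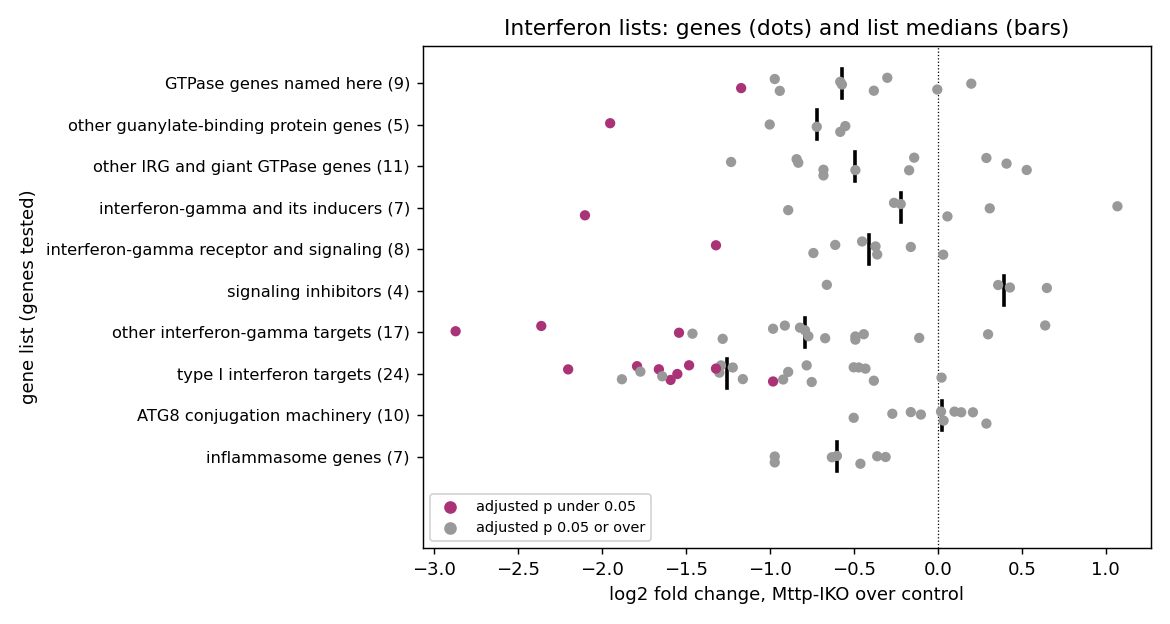
Log2 fold change (Mttp-IKO over control) of every gene tested in the 9 GTPase genes and in the lists around them, with a dot per gene (purple where the adjusted p is under 0.05) and a black bar at the median of the list. The medians run from -1.25 for targets of type I interferon to 0.40 for signaling inhibitors, with the 9 GTPase genes at -0.57.

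The 5 genes whose log2 CPM over the 6 pools was most like the mean of the 9 GTPase genes, among 12584 genes ranked, were Snx11 (Pearson r = 0.989), Parvb (0.984), Pfkl (0.981), Klhl36 (0.981) and Gm4853 (0.978). The mean log2 CPM of the GTPase genes that they followed was 4.05, 3.75 and 3.63 in controls and 3.31, 3.46 and 2.97 in Mttp-IKO. The points share their libraries, and the correlation is a description. None of the 5 was called, their log2 fold changes lying between -0.71 and -0.31.

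Summed markers had groups apart for some cell types and overlapping groups for others. Of single genes, 31.0% had groups apart in either direction, and that share was not computed for sums of genes. Over all 17287 genes, 23.0% were at an unadjusted p under 0.05 by edgeR. Of the 17287 genes, DESeq2 called 657 higher and 1338 lower. The summed CPM of 6 markers of recruited macrophages was 218 to 702 in controls and 42.2 to 123 in Mttp-IKO, and 5 of the 6 were called lower, where 3.09% of all genes were. Most of that sum was Gpnmb, the marker not called (log2 fold change -2.45, adjusted p = 0.0587, edgeR). Summed markers of B cells (2.70 to 3.16 against 0.670 to 1.29 CPM, 0 of 3 called by edgeR, with 2 at an unadjusted p under 0.05) and of stellate cells (547 to 729 against 406 to 465 CPM, 3 of 5 called lower) were also apart. Most of the stellate sum was Reln (log2 fold change -0.43) and Dcn (-0.44), which were not called and whose groups overlapped. The sum for hepatocytes, most of it Alb, was higher in every Mttp-IKO pool, at 106088 to 160962 CPM against 53325 to 88748 CPM, with 0 of 6 called by edgeR or limma-voom, 3 by DESeq2 and 4 at an unadjusted p under 0.05 by edgeR. Among them Ttr lay the other way, at 2546, 2737 and 1464 CPM in Mttp-IKO against 2805, 3823 and 3248 CPM (log2 fold change -0.55, adjusted p = 0.290, edgeR). Markers of T cells (5.35 to 12.6 against 3.31 to 6.09 CPM), natural killer cells (2.35 to 7.48 against 1.84 to 3.12 CPM), Kupffer cells, sinusoidal endothelial cells, neutrophils and cholangiocytes overlapped in sum. All 6 T cell markers tested had log2 fold changes below 0 (median -0.81), and 0 were called. Of 4 natural killer cell markers tested, 3 were below 0 and 1 above (median -1.08), and 0 were called. Of all genes, 49.5% lay below 0. Of the 5 Kupffer cell markers, Timd4 was called higher, at 1.16 ± 0.242 (adjusted p = 0.0425, edgeR), where 0.920% of all genes were called higher. The list itself was mixed, with 3 log2 fold changes above 0, 2 below and a median of 0.12. Marco stood at 1.31 (adjusted p = 0.195) and Cd5l at -0.74 (0.214), by edgeR. Ly6g, which defines neutrophils, had no more than 3 reads in any pool. The part of these cell types in the values of the GTPase genes was not tested.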

How the data were processed

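The authors aligned the reads to the Ensembl release 76 primary assembly (GRCm38) with STAR 2.5.1a and used featureCounts 1.4.6-p5 to count, for each gene, the reads that aligned uniquely and to no other gene. Whether counting used strand is not given in the sources used here. The deposited tables hold raw counts per gene. The deposited file of each pool also gives CPM, scaled to the counted reads of the library, and RPKM, the CPM per kilobase of exon. CPM and RPKM in the text were recomputed here from the deposited counts and gene lengths with TMM factors. Genes were kept by filterByExpr (minimum count 10) and tested with edgeR 4.0.16 (quasi-likelihood, Benjamini-Hochberg over all genes tested) in R 4.3.3, Mttp-IKO against control with no covariate. A single gene was also tested with an exact two-sided permutation test of log2 CPM. DESeq2 1.42.0, limma-voom (limma 3.58.1), other scalings, filters, a length correction, a replicate block and leaving out each pool were tried. On simulated counts of 17287 genes with 200 changed, edgeR found 52 of 100 genes changed 2-fold and 100 of 100 changed 4-fold, and called 8 unchanged genes. The simulation gave every gene the same variability between pools, changed only genes with many reads and held no outlying pool. It therefore checks the code and does not give the power of the test in these pools.

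The gene lists and the 10 genes were chosen with earlier results of these data known. Every one of the 10 genes, the other family members and the genes of the ligand, receptor and inhibitor lists could be named, and of other lists up to 4 genes with the smallest adjusted p, any gene needed for a count of 5 or fewer, and the 5 genes most like the mean of the GTPase genes. Each pool mixed RNA of several mice, so p-values measure the spread between pools and not between single mice. The 3 reads that a count of 0 allows cover counting error only. A gene of the signaling list is not reported here by name.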

Additional observations from a re-analysis of the deposited data

How the results depend on the processing

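The count of genes called moved with the test and with single pools. Over all genes, against 694 calls, the DESeq2 Wald test called 1995 and limma-voom 428, and leaving out 1 pool at a time gave 0 to 892. Of the 9 GTPase genes, against 1, total counts without a scaling factor and the DESeq2 Wald test each called 2 (Gbp2 and Gbp3), a fit with the replicate number as a block called 0, and leaving out any pool left 0 called by edgeR, with 2 to 4 then at an unadjusted p under 0.05. Over all genes, 2476 of 17652 were at such a p without control pool 1 and 4685 of 17854 without Mttp-IKO pool 3. Without Mttp-IKO pool 1 the values were 2 of the 9 GTPase genes and 4457 of all 17943 genes. Of the 93 genes tested in the lists around them, against 14, DESeq2 called 27, limma-voom 7, and leaving out 1 pool at a time gave 0 to 16. The cause of these shifts was not tested. The log2 fold change of Gbp3 kept its direction under all 17 alternatives and its adjusted p was under 0.05 in 10 of them.

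Of 2 results near 0, Tgtp1 turned to 0.0042 with DESeq2 size factors, 0.0025 with the DESeq2 test, 0.0076 with protein-coding genes only and 0.10 with the trend on gene length removed, and ranged from -0.84 to 0.37 without 1 pool at a time. Jak1 turned to -0.15 with total counts and ranged from -0.037 to 0.10 without 1 pool at a time. F830016B08Rik ranged from -0.19 to 0.65. Of the 45 genes followed through the alternatives, which leave out Mttp, the 5 genes most like the GTPase genes, Gvin1, Gm4070 and the cell type markers, the other 42 kept their direction under all alternatives run, and of 762 values for the 45 genes, 685 kept direction and side of the threshold. Total counts moved the median of all genes to -0.17 and the length correction to 0.12. The share of lower calls was 77.1% in the main comparison, 88.9% with total counts and 59.0% with the length correction.

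The numbers in the sample titles were not shown to pair the pools: deviations from the group means correlated at 0.139, 0.112 and 0.00698 across genes for pools 1, 2 and 3, and 5 of 6 pools correlated best with their own number. With the replicate block, 595 genes were called over all genes, and the calls of Gbp3 (adjusted p = 0.0613, edgeR) and Tbx21 (0.0690) were lost. With 3 pools a genotype, simulated 2-fold changes were found for 52 of 100 genes. That simulation held equal variability for every gene and no outlying pool, so the share found in the real pools is not known. Ifng lay below the depth needed to see it.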
